A study of Bos taurus with 16 samples.

Results

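Embryos of cows fed flax seed (FLX) were compared with embryos of cows fed canola seed (CAN) on 8 of the 16 arrays of the study, on slides 1 and 2. These arrays were chosen by their labels, and no measured value entered the choice. FLX donors were 8 non-lactating Holstein cows whose diet held rolled flax, a seed rich in α-linolenic acid, the n-3 precursor among plant fatty acids. CAN donors, the control group, were 8 Holstein cows of the same kind given rolled canola, rich in oleic acid, and the other 8 arrays set a sunflower diet (SUN, 7 cows, rich in linoleic acid) against CAN. All donors had been on their diet for at least 35 days, were superstimulated with follicle-stimulating hormone and were inseminated a pair of times, 12 h apart, with semen of a single sire. Day 7.5 embryos were flushed from the uterus, those of a similar stage from a cow were pooled, and RNA of blastocysts was amplified and labelled. The labels give 4 biological replicates per comparison, each hybridised once and once more with Cy3 and Cy5 exchanged, so that FLX 1 and 2 lay on slide 1 and FLX 3 and 4 on slide 2. The labels do not state how many embryos or cows stood behind a replicate, nor the sex of the embryos.

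A blastocyst is a hollow embryo with an outer epithelium, the trophectoderm, which pumps fluid into the cavity and later forms the placenta, and an inner cell mass that gives rise to the fetus and the hypoblast. Before implantation it lives on oviduct and uterine fluid, burns pyruvate, glucose, amino acids and stored fat, and makes its own RNA and ribosomes. Fatty acids of the maternal diet reach follicle and uterine fluid, and α-linolenic and linoleic acid compete for the same desaturases and elongases on the way to long-chain fatty acids of membranes and of prostaglandins. The comparison asks whether the n-3 rich maternal diet was followed by other transcript levels in her embryos than the diet rich in oleic acid.

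Values here are log2 ratios of FLX over CAN for 43794 probes, of which 21790 carried a single gene symbol (15216 genes). The direction was read as Cy5 over Cy3, which is likely but not stated, and the logarithm was taken to base 2. Were the ratio Cy3 over Cy5, every sign below would turn. A ratio gives no level, so whether a marker of the blastocyst was present could not be checked, and a lower ratio cannot tell fewer cells of a type from less RNA per cell. The FLX arrays had medians of −0.0064 to −0.0024 and SDs over probes of 0.233 to 0.355. An array and its dye exchange correlated at −0.616 to −0.274 before turning, and the mean of the 2 was 1 replicate value. Over all probes, correlations between FLX replicates ran from −0.264 to 0.0482, and 10.5% of genes had the same sign in all 4. A dye effect passed a false discovery rate (FDR) of 0.05 in limma for 8135 probes (18.6%), and the mean ratio depended on the dye order for many genes. Of the 480 genes at an unadjusted p under 0.05, 164 (34.2%) had means that differed more than 3-fold or in sign between arrays with CAN in Cy3 and arrays with CAN in Cy5, as had 28 of the 91 list members (30.8%) counted below, and for such genes both means are given. The number of arrays limits the precision: the median standard error of a gene's mean log2 ratio was 0.0752.

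No gene or probe was called higher or lower in FLX embryos. In limma 0 of 43794 probes (0.0%) and 0 of 15216 genes (0.0%) passed an FDR of 0.05, with smallest adjusted p-values of 1.00. The count at an unadjusted p under 0.05 was 1273 probes (2.91%; 694 positive, 1.58%, and 579 negative, 1.32%) and 480 genes (3.15%), of which 254 were positive (1.67%) and 226 negative (1.49%). Among the probes 35 (0.0799%) also reached 1.5-fold, 12 positive (0.0274%) and 23 negative (0.0525%). This last count was 104 without replicate 1, 76 without replicate 3 and 136 without replicate 4, and the gene count was 788 without replicate 4. The error came from FLX and SUN replicates together, so a gene can have a small p although its FLX replicates spread widely. From FLX replicates alone, 567 genes were at an unadjusted p under 0.05 and 0 passed the FDR. With any 1 FLX replicate left out, 0 genes passed it too. With robust regression, which gives an odd replicate less weight, 22 probes and 6 genes passed the FDR: the helicase gene DDX51 and the arginine methyltransferase gene PRMT3 with positive ratios, and HKDC1, PAG2, U2AF1 and the profilin gene PFN2 with negative ones. What follows describes ratios of the genes and families as measured, each short of the threshold in the main test, with replicate values in the order 1 to 4.

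Of the 35 probes of 1.5-fold, 24 (0.0548%) had the same sign in 4 of 4 replicates, and 16 of those carried a gene symbol: 13 were lower in FLX embryos and 3 higher in the mean. A single sign in all 4 replicates was thus a condition for naming them. SLC35G1, a membrane protein of the solute carrier group, had log2 ratios of −0.89, −0.77, −1.07 and −0.93, the lowest mean at −0.92 ± 0.12 (SD, n = 4 here and below), or 1.89-fold lower. All 8 of its arrays were negative, and the spread between replicates was small beside the mean, while its other probe stood at −0.086. HKDC1, a hexokinase-like protein that phosphorylates glucose, stood at −0.81, −0.71, −1.08 and −0.19, all below 0 with replicate 4 nearest to it. PSPH, the phosphatase of the last step of serine synthesis, had −0.40, −1.44, −0.13 and −0.52 on one probe and a mean of 0.030 on its other. Replicate 2 was the farthest from 0, so the mean of the first probe, −0.62 ± 0.57, owed most to it. MRPL14, of the large mitochondrial ribosomal subunit, had −1.02, −0.82, −0.27 and −0.39 (−0.76 with CAN in Cy3, −0.49 in Cy5), and its other probe was also negative at −0.12.

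The other negative probes included those of secreted and matrix products. ENHO, which encodes the secreted peptide adropin, had −0.59, −1.09, −1.09 and −0.30 (−0.77 ± 0.39), with replicates 2 and 3 at more than 2-fold lower. COL1A2, a chain of the main fibrillar collagen of connective tissue, had −0.46, −0.51, −0.92 and −0.65, close together and all below 0. UNC13D, which primes secretory granules for release in human lymphocytes, had −0.91, −0.37, −0.71 and −0.57 on one probe, but its other 2 probes averaged 0.016 and 0.046. That probe carried a dye effect too, with a mean of −0.98 where CAN was in Cy3 and −0.30 where it was in Cy5. SNX25, a sorting nexin of endosomes, had −1.27, −0.41, −0.31 and −0.66 (−0.78 with CAN in Cy3, −0.55 in Cy5), with replicate 1 lowest. BTBD6, an adaptor of a cullin ubiquitin ligase, had −0.023, −0.93, −1.83 and −0.26, so its 1.69-fold mean came from replicates 2 and 3. DESI2, a cysteine isopeptidase, had −0.50, −0.91, −0.96 and −0.085. TCTA had −0.73, −0.62, −0.79 and −0.32. Both were negative in all 4 replicates with replicate 4 nearest to 0. LOC516378, without a gene name of its own, averaged −0.63 ± 0.35. LOC528262, likewise unnamed, averaged −0.60 ± 0.59, with a mean of −1.12 with CAN in Cy3 and −0.079 with CAN in Cy5.

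The 3 positive probes belonged to a splicing factor, an NAD-consuming enzyme and a regulator of vesicle traffic. HNRNPH3, an RNA-binding protein of the hnRNP H family, had 0.85, 0.67, 0.62 and 0.43 (0.81 with CAN in Cy3, 0.47 in Cy5), all 4 above 0 and the tightest of the 3. CD38, which cleaves NAD, had 0.59, 1.51, 0.26 and 0.23 (0.93 with CAN in Cy3, 0.36 in Cy5), with replicate 2 far above the other replicates, and its other 2 probes stood at −0.027 and 0.28. DENND4A, an exchange factor of Rab GTPases, had 0.82, 1.15, 0.27 and 0.12, higher on slide 1 than on slide 2.

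**Figure D1:**
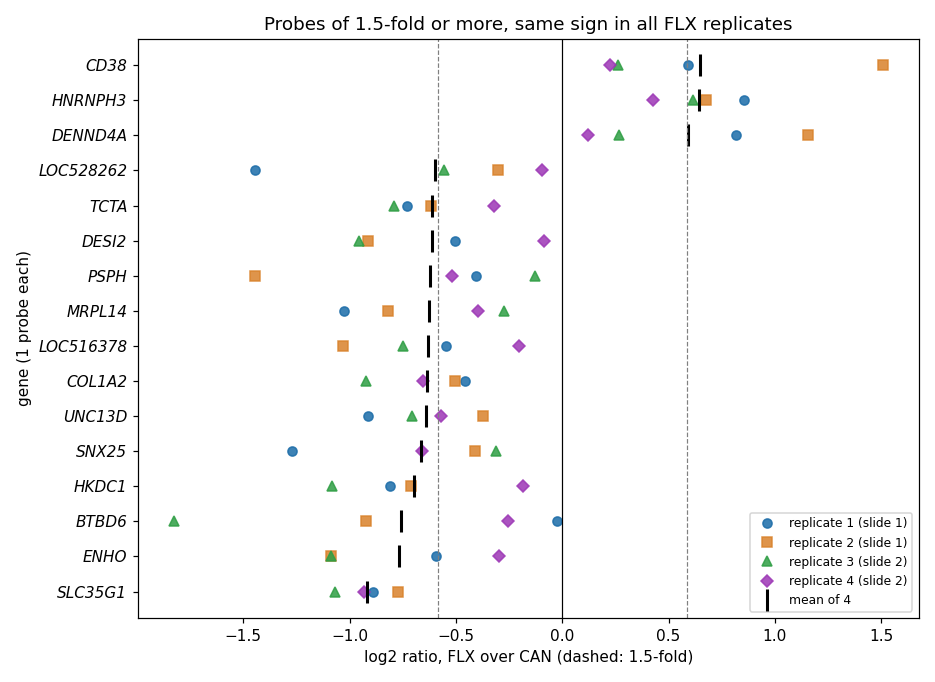
Log2 ratio of FLX over CAN (horizontal axis) in each of the 4 FLX replicates for the 16 named probes of 1.5-fold or more at an unadjusted p under 0.05 and of the same sign in 4 of 4 replicates; black bars are means over the 4 replicates and dashed lines mark 1.5-fold. The points of SLC35G1 lie close together between −1.07 and −0.77, while those of BTBD6 run from −1.83 to −0.023.

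Genes read by several probes carry repeat readings of 1 transcript. Of 1946 genes with 3 or more probes, 119 (6.12%) had all probes of the same sign and a gene mean of the same sign in 4 of 4 replicates, 59 positive and 60 negative. MYL6, the essential light chain of non-muscle and smooth muscle myosin, was the lowest: its 11 probes averaged −0.44 to −0.26, and its gene means were −0.20, −0.49, −0.50 and −0.32. By the choice of these genes no replicate or probe of MYL6 was above 0. Its mean was −0.38 ± 0.14 (1.30-fold lower), with −0.58 where CAN was in Cy3 and −0.17 where it was in Cy5. LATS2, a Hippo pathway kinase that holds back YAP in inner cells of mouse embryos, had gene means of −0.18, −0.31, −0.49 and −0.13 over 3 probes. STAR, which brings cholesterol into mitochondria for steroid synthesis, had −0.31, −0.12, −0.34 and −0.35, about equal in 3 replicates and higher in replicate 2. ANKH, a transporter of pyrophosphate, had −0.22, −0.0090, −0.64 and −0.30, close to 0 in replicate 2. REEP5, which shapes the endoplasmic reticulum, averaged −0.25 ± 0.14. CCNDBP1, a cyclin D binding protein, averaged −0.23 ± 0.18. TMEM11 of mitochondrial membranes averaged −0.22 ± 0.17 (−0.34 with CAN in Cy3, −0.11 in Cy5). C8H9ORF46 averaged −0.30 ± 0.14. DESI2 averaged −0.27 ± 0.20. SYTL2, a Rab27 effector, had −0.17, −0.080, −0.69 and −0.062, and replicate 3 stood apart from the others.

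On the positive side HNRNPH3 led with gene means of 0.56, 0.52, 0.47 and 0.14 over 4 probes (0.081 to 0.64). WDR77, the partner of the arginine methyltransferase PRMT5 that modifies spliceosomal proteins, had 0.17, 0.62, 0.27 and 0.30, highest in replicate 2, and its probes ran from 0.024 to 0.55. SNRPA1, a protein of the U2 particle of the spliceosome, had 0.39, 0.27, 0.23 and 0.028. PPIL4, a cyclophilin-type prolyl isomerase, had 0.26, 0.51, 0.024 and 0.059. Both stood near 0 in at least 1 replicate. SLC4A7, a sodium bicarbonate cotransporter, had 0.042, 0.43, 0.42 and 0.22, lowest in replicate 1. RAB27A, a GTPase of secretory organelles, averaged 0.24 ± 0.20. VPS4B, the ATPase that recycles the ESCRT membrane-cutting complex, averaged 0.21 ± 0.22. The zinc finger gene ZMYM1 averaged 0.36 ± 0.19. KIT, the receptor of stem cell factor, had 0.21, 0.36, 0.20 and 0.13 (0.34 with CAN in Cy3, 0.11 in Cy5). TEX12 of the synaptonemal complex had 0.20, 0.24, 0.25 and 0.12. TEX12 averaged 0.20 ± 0.059 (0.33 with CAN in Cy3, 0.079 in Cy5), a small spread, but its probes differed: 1 averaged 0.48 and the other 2 0.060 and 0.076.

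**Figure D2:**
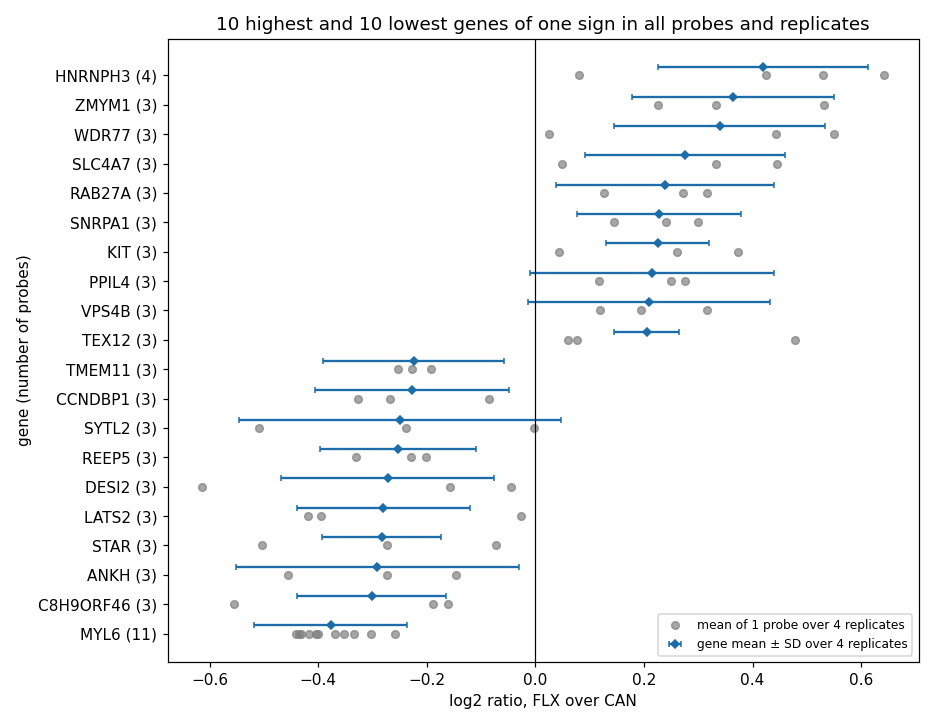
Log2 ratio of FLX over CAN (horizontal axis) for the 10 highest and 10 lowest genes among the 119 with 3 or more probes and 1 sign in all probes and replicates; grey points are means of single probes over 4 replicates, diamonds are gene means and bars their SD over 4 replicates. The 11 probes of MYL6 cluster between −0.44 and −0.26, whereas the 3 probes of TEX12 are split between 0.48 and values under 0.08.

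Several of the 10 genes of smallest unadjusted p in each direction had replicates that lay close together at modest ratios, which a choice by p favours. U2AF1, which marks the AG of splice acceptor sites, had −0.27, −0.29, −0.31 and −0.30, about equal in all 4. RASSF9, a Ras-association domain protein of endosomes, had −0.25, −0.21, −0.35 and −0.33. ATIC, which closes the purine ring, had 0.33, 0.31, 0.31 and 0.24. PLA2G5, an extracellular enzyme that cuts fatty acids off membrane phospholipids, had 0.37, 0.32, 0.59 and 0.38, with replicate 3 highest. The SUN means were −0.18 ± 0.11 for U2AF1, −0.37 ± 0.031 for RASSF9, 0.066 ± 0.15 for ATIC and 0.30 ± 0.091 for PLA2G5. All but ATIC had 1 sign in the SUN replicates too. NUP133 of the nuclear pore had 0.23, 0.26, 0.22 and 0.15, but 0.35 with CAN in Cy3 and 0.082 with CAN in Cy5. MINPP1, an inositol polyphosphate phosphatase, averaged 0.19 ± 0.044, with 0.39 where CAN was in Cy3 and −0.0023 where it was in Cy5. TMEM38B, a cation channel of the endoplasmic reticulum, averaged 0.25 ± 0.14, with 0.52 where CAN was in Cy3 and −0.017 where it was in Cy5. For CMTM8, a membrane protein of the MARVEL family, the mean was −0.30 ± 0.11, with −0.54 and −0.052 for CAN in Cy3 and in Cy5. These 3 genes, like KIT, TEX12, OLFM2 and NUP133, had means farther from 0 on arrays with CAN in Cy3. OLFM2, a secreted olfactomedin, averaged 0.34 ± 0.11 (0.52 with CAN in Cy3, 0.17 in Cy5). EIF4E3, a cap-binding protein, had 0.026, 0.41, 0.63 and 0.70, near 0 in replicate 1 alone. DCLRE1A, a nuclease of DNA cross-link repair, averaged −0.32 ± 0.16. C16H1orf174 averaged −0.31 ± 0.17.

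Gene families were described over 71 lists holding 1956 measured genes, of which 91 (4.65%) were at an unadjusted p under 0.05, 52 positive and 39 negative, beside 3.15% of all genes. In 23 lists no member was at that level, and in 10 lists more than 10% of members were. List medians ran from −0.13 to 0.068. The median kept 1 sign in all 4 replicates in 6 of the 71 lists, while 10.5% of all genes kept 1 sign. Lists and members were chosen with earlier results of these data known, so these shares describe the lists and do not test them. Members of a family are not independent of each other, counts of few members varied when a replicate was left out, and some genes stand in more than 1 list.

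**Figure D3:**
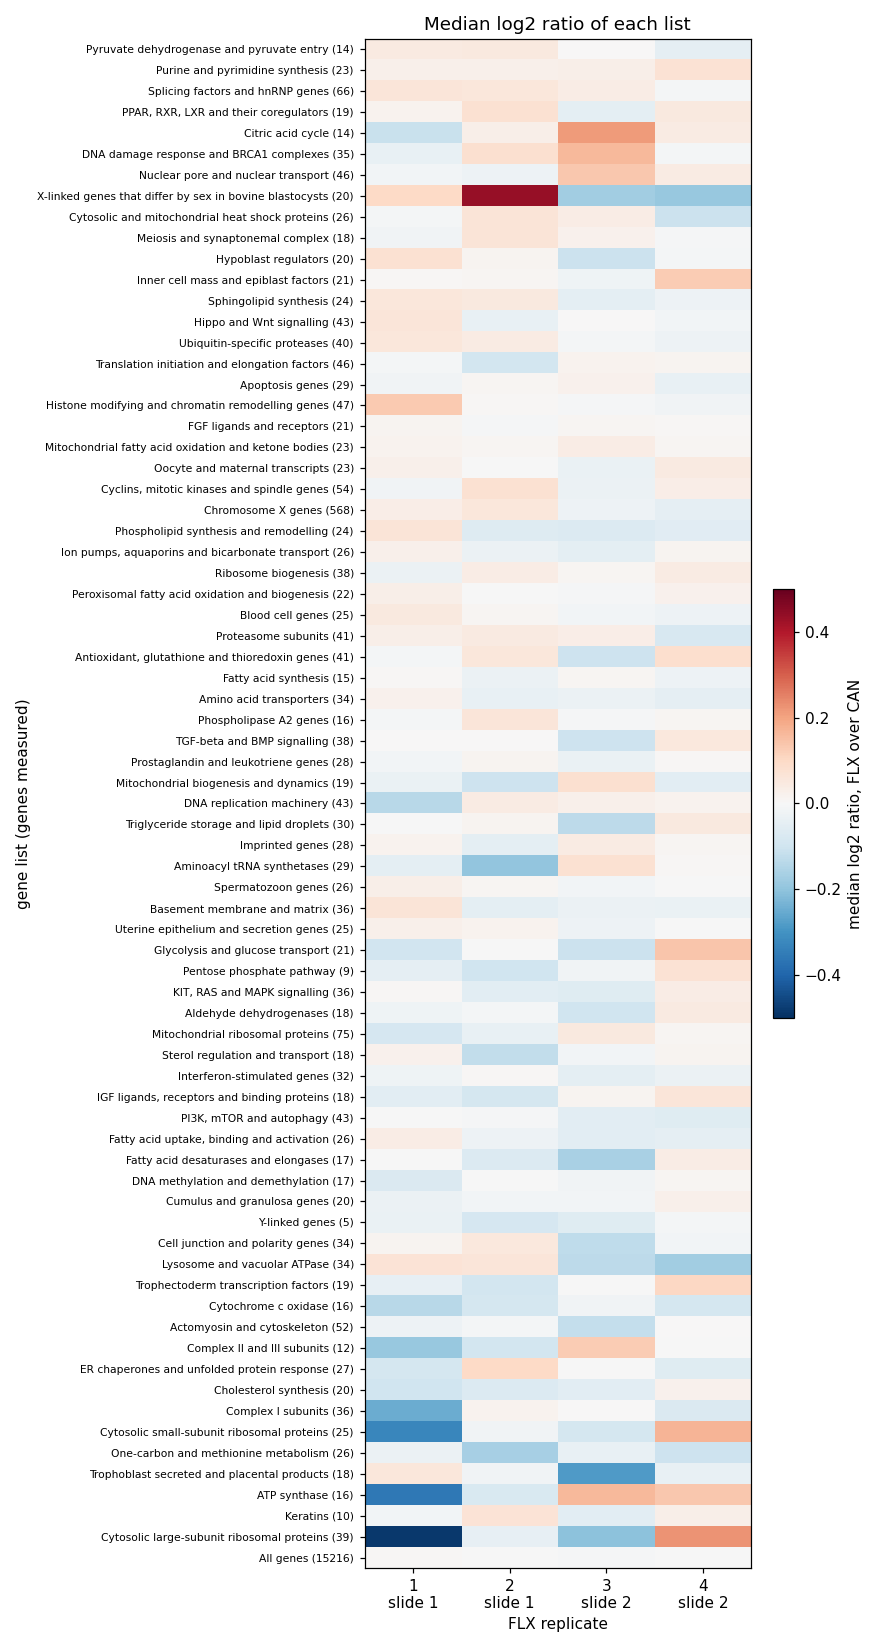
Median log2 ratio of FLX over CAN over the measured genes of each list (rows, number of genes in brackets, ordered by the median of gene means) in each FLX replicate (columns); red is higher and blue lower in FLX. Most rows change colour between replicates, the widest being the large-subunit ribosomal proteins from −0.48 in replicate 1 to 0.23 in replicate 4.

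Genes of the nuclear envelope channel and of RNA processing stood mostly above 0. Nuclear pore and transport genes carry RNA and proteins between nucleus and cytoplasm, and 35 of 46 were positive (76.1%, beside 50.8% of all genes), but 27 of 46 without replicate 1 and likewise without replicate 3. Of these 46 genes 6 were at an unadjusted p under 0.05 (13.0%), all positive. NUP133, NUP107 and SEH1L belong to the Y-shaped scaffold of the pore, and NUP107 had 0.12, 0.34, 0.47 and 0.042. SEH1L had 0.12, 0.33, 0.17 and 0.15. NUP205, NUP93 and NUP35 belong to the inner ring, and NUP205 had 0.36, 0.29, 0.41 and 0.22. NUP93 had −0.0024, 0.24, 0.57 and 0.15. NUP35 had 0.10, 0.11, 0.29 and 0.077 (0.32 with CAN in Cy3, −0.030 in Cy5). These members were above 0 in all 4 replicates except NUP93 in replicate 1. The list's median was 0.043, with replicate medians of −0.012, −0.025, 0.14 and 0.040, positive on slide 2 only. In SUN arrays 29 of 46 were positive, with replicate medians of 0.028, 0.011, 0.063 and 0.035. The count of 6 was 3 without replicate 2 and 2 without replicate 3.

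Of the splicing factors 42 of 66 were positive, beside 45 of 66 in SUN arrays, where the median was 0.074. In FLX their median was 0.051, and it was 0.061, 0.057, 0.037 and −0.012 by replicate, below 0 in replicate 4 only. At an unadjusted p under 0.05 were 6 positive and 2 negative members (12.1%), 5 in all without replicate 1 or 2. SF3B3, a subunit of the U2 branch-site complex, had 0.68, 0.55, 0.35 and 0.20. SYNCRIP, an hnRNP that binds poly(A), had 0.65, 0.015, 0.36 and 0.35 (0.62 with CAN in Cy3, 0.069 in Cy5). HNRNPU, a scaffold of nuclear RNA, had 0.33, 0.051, 0.091 and 0.15 (0.29 with CAN in Cy3, 0.021 in Cy5). All were above 0 in 4 of 4 replicates, as was SRSF9, a serine- and arginine-rich splicing factor, at 0.25 ± 0.13. On the negative side, besides U2AF1, SNRPB of the spliceosomal Sm ring had −0.19, −0.45, −0.60 and 0.10 (−0.50 with CAN in Cy3, −0.076 in Cy5). U2AF2, the partner of U2AF1, had 0.26, −0.20, −0.26 and 0.084, with both signs. HNRNPH1, the near relative of HNRNPH3, had −0.28, 0.051, 0.34 and 0.27.

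Ribosome biogenesis genes act in the nucleolus, and 4 of 38 (10.5%) were at an unadjusted p under 0.05, all positive, while 20 of 38 were positive and the median was 0.0063. EBNA1BP2, a large-subunit assembly factor, had 0.22, 0.26, 0.59 and 0.026. NOLC1, a nucleolar chaperone, had 0.24, 0.20, 0.40 and 0.055. TSR1, of small-subunit maturation, had 0.12, 0.22, 0.50 and 0.20. POLR1B, a subunit of RNA polymerase I, averaged 0.17 ± 0.17. The count was 2 without replicate 1 and 1 without replicate 2. NPM1, the most abundant nucleolar protein of many cells, had 0.21, 0.30, 0.16 and 0.096. FBL, the rRNA methyltransferase, had −0.14, 0.0046, −0.36 and 0.44.

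The proteins of the ribosome itself behaved otherwise. Large-subunit genes had 30 of 39 negative, with 19 of 39 positive without replicate 1, but their replicate medians were −0.48, −0.042, −0.20 and 0.23, and 0 of 39 had the same sign in 4 of 4 replicates, beside 10.5% of all genes. Small-subunit genes ran likewise, at −0.33, −0.019, −0.088 and 0.17. The SUN medians were −0.29, 0.096, 0.017 and 0.061 for the large subunit and −0.28, 0.20, 0.016 and 0.072 for the small. At an unadjusted p under 0.05 were 1 large-subunit gene, RPL29 (−0.61, −0.54, −0.45 and 0.23), and 0 of the 25 small-subunit genes. Without replicate 4 these counts were 13 and 8, all negative, and without replicate 1 both were 0. Mitochondrial ribosomal proteins, which translate the respiratory chain subunits coded in mitochondria, had a median of −0.019 with 2 positive and 2 negative members at an unadjusted p under 0.05, 2 in all without replicate 3 and 8 without replicate 4. MRPL9 averaged 0.23 ± 0.19. MRPL20 averaged 0.27 ± 0.30 (0.46 with CAN in Cy3, 0.082 in Cy5). MRPS18A averaged −0.15 ± 0.089 (−0.27 with CAN in Cy3, −0.030 in Cy5). MRPL14, over its 2 probes, averaged −0.38 ± 0.18. Translation factors stood at a median of 0.015, with EIF3K, a subunit of the initiation factor eIF3, at −0.68, −0.30, 0.14 and −0.51 (−0.54 with CAN in Cy3, −0.14 in Cy5). None of the 29 aminoacyl tRNA synthetases reached an unadjusted p of 0.05, GARS1, which charges tRNA with glycine, being nearest at −0.84, −1.10, −0.048 and −0.058.

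Nucleotide synthesis feeds RNA and DNA of the dividing embryo, and this list had the highest share of members among the 71 lists at an unadjusted p under 0.05, 5 of 23 (21.7%), 4 positive and 1 negative. Its median was 0.052 and its replicate medians were 0.027, 0.025, 0.028 and 0.072, all positive. PPAT, the first enzyme of purine synthesis, had 0.55, 0.020, 0.67 and 0.14 (0.60 with CAN in Cy3, 0.087 in Cy5), and ATIC, the last, was positive in all 4 as given above. UMPS, which makes the nucleotide UMP, had 0.64, 0.36, 0.079 and 0.19. DHODH, the mitochondrial step before it, had 0.11, 0.15, 0.35 and 0.15. CAD, which starts pyrimidine synthesis, stood on the other side with −0.15, −0.51, −0.44 and 0.014 (−0.068 with CAN in Cy3, −0.47 in Cy5). The count was 3 without replicate 1, 2 or 3 and 5 without replicate 4.

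One-carbon and methionine metabolism, which supplies methyl groups and carbon for purines, had 16 of 26 negative members and negative medians in all 4 replicates, −0.030, −0.17, −0.036 and −0.10. Of the 26 genes 2 (7.69%) were at an unadjusted p under 0.05, both negative. The count was 1 without replicate 2 or 3 and 5 without replicate 4. CTH, which makes cysteine from cystathionine, had −0.36, −0.85, −0.41 and −0.11. PHGDH, the first enzyme of serine synthesis, had −0.51, −0.56, −0.23 and −0.086. PSPH, further along the same path, averaged −0.30 ± 0.23 over its 2 probes. SHMT2, the mitochondrial serine hydroxymethyltransferase, had −0.42, −0.26, −0.022 and 0.33. MAT2A, which makes S-adenosylmethionine, had −0.33, 0.13, 0.049 and −0.11, with both signs, as SHMT2 had. Amino acid transporters had a median of −0.0017. Among them SLC38A3, a glutamine transporter, averaged 0.26 ± 0.30. SLC7A5, which takes up leucine, had −0.46, −0.22, 0.26 and 0.37.

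**Figure D4:**
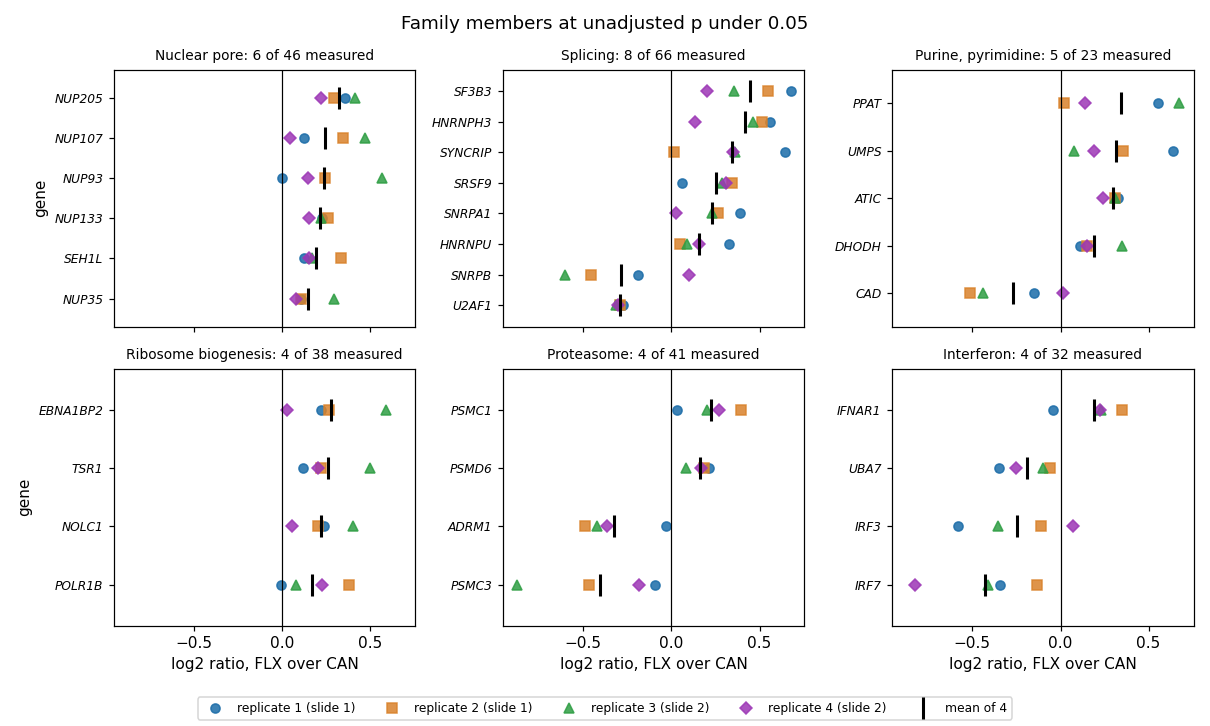
Log2 ratio of FLX over CAN in each FLX replicate (horizontal axes) for the members at an unadjusted p under 0.05 of 6 families, with the number of genes measured in each panel title; black bars are means over the 4 replicates. All 6 nuclear pore and all 4 ribosome biogenesis members have positive means, and those of the splicing, nucleotide, proteasome and interferon panels lie on both sides of 0.

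Energy genes had members on both sides. In the citric acid cycle 2 of 14 genes (14.3%) were at an unadjusted p under 0.05, both positive: IDH3B, of NAD-dependent isocitrate dehydrogenase, had 0.12, 0.053, 0.41 and 0.31. MDH2, the malate dehydrogenase, had 0.053, 0.11, 0.22 and 0.38. Both were highest on slide 2, and the list's replicate medians were −0.11, 0.031, 0.21 and 0.040. Without replicate 3 the count was 0, and without replicate 4 it was 1, a negative member. PDHX, which anchors the lipoamide dehydrogenase in the pyruvate dehydrogenase complex, had 0.17, 0.096, 0.28 and 0.28 (0.31 with CAN in Cy3, 0.10 in Cy5) over 2 probes of opposite sign. PC, pyruvate carboxylase, had −0.21, −0.33, −0.42 and −0.049. PGK1, a glycolytic kinase coded on the X chromosome, had 0.26, 0.71, 0.31 and 0.23, highest in replicate 2. The glucose transporters SLC2A1 (−0.27, −0.17, −0.61 and −0.0042) and SLC2A3 (−0.35, −0.40, −0.83 and 0.14) were lowest in replicate 3. LDHA, the lactate dehydrogenase of hypoxic cells, had 0.24, 1.60, −0.36 and −0.00047. In the pentose phosphate pathway the transaldolase TALDO1 averaged −0.23 ± 0.19 with 5 of 6 probes negative. Its SUN mean was −0.27 ± 0.094. PRPS1, which starts nucleotide synthesis from ribose phosphate and is X-linked, had 0.79, 1.31, −0.17 and 0.072.

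Respiratory chain lists had medians that differed by replicate. ATP synthase subunits had replicate medians of −0.36, −0.076, 0.16 and 0.13, complex I of −0.25, 0.017, 0.0038 and −0.070 and complexes II and III of −0.19, −0.093, 0.13 and −0.0031, each lowest in replicate 1. In SUN arrays, on other slides, replicate 1 was also the lowest in these lists, at −0.20, −0.26 and −0.19. ATP5F1B, the catalytic subunit of ATP synthase, had 0.056, 0.37, 0.46 and 0.11. In complex I 2 of 36 genes were at an unadjusted p under 0.05, none without replicate 1 and 5 without replicate 4. NDUFA10 had −0.25, −0.24, −0.16 and −0.12. NDUFS8 had −0.43, −0.59, −0.081 and 0.013. SDHA had −0.19, −0.11, −0.076 and −0.15 (−0.22 with CAN in Cy3, −0.042 in Cy5). Cytochrome c oxidase had negative medians in all 4 replicates, −0.14, −0.086, −0.019 and −0.090, with 12 of 16 members negative, with 8 of 16 positive without replicate 4, and 0 at an unadjusted p under 0.05. COX5B had −0.56, −0.29, −0.22 and −0.11. COX6B1 had −0.69, −0.42, −0.082 and −0.14. TOMM20, the receptor through which proteins enter mitochondria, averaged 0.25 ± 0.26. TFAM, which packs and transcribes mitochondrial DNA, had −0.049, 0.12, −0.075 and −0.29.

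Lipid genes handle the fatty acids in which the diets differed, and the medians of their lists lay close to 0, from −0.052 for cholesterol synthesis to 0.050 for PPAR, RXR, LXR and their coregulators. FADS2, the rate-limiting desaturase for α-linolenic and linoleic acid, had −0.81, −0.49, −0.92 and −0.038, below 0 in all 4 and close to it in replicate 4. Its neighbours on the path had both signs. FADS1 had 0.60, −0.13, −0.054 and −0.28. SCD, which makes oleic acid, had 0.059, −0.26, −0.55 and 0.23. ELOVL5 had −0.0022, −0.042, 0.13 and −0.20. SREBF1, a transcription factor of lipogenic genes, had −0.55, −0.26, −0.39 and −0.038 (−0.57 with CAN in Cy3, −0.049 in Cy5). ACLY, which makes cytosolic acetyl-CoA, had 0.43, 0.081, 0.38 and 0.047. FASN, the fatty acid synthase, had 0.011, 0.19, −0.31 and 0.35. For uptake, SLC27A4, an acyl-CoA synthetase and transporter, had −0.078, −0.29, −0.41 and −0.18. FABP5, a fatty acid binding protein, had −0.43, 0.082, −1.27 and −0.10. CD36 had 0.21, −0.29, −0.034 and −0.042. The first was below 0 throughout, while the other 2 had both signs.

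Fatty acid oxidation had positive medians in all 4 replicates, all small (0.018, 0.012, 0.038 and 0.0096). The median of its gene means was 0.013, but −0.017 without replicate 3 and −0.0032 without replicate 4. ETFDH, which hands electrons from oxidation to ubiquinone, had 0.026, 0.41, 0.52 and 0.00014 (0.38 with CAN in Cy3, 0.094 in Cy5). CPT1A, the gate of fatty acids into mitochondria, had 0.26, −0.48, 0.13 and 0.17. The peroxisomal oxidase ACOX3 had 0.34, 0.17, 0.058 and 0.35, all above 0. ABHD5, which activates the lipase of lipid droplets, averaged −0.18 ± 0.13. HILPDA, which restrains that lipase, had 0.94, 0.45, −0.13 and 0.098 (0.58 with CAN in Cy3, 0.10 in Cy5). PLIN2, the coat of lipid droplets, had −0.32, 0.41, −0.14 and −0.19.

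Among membrane lipid genes 3 of 24 (12.5%) were at an unadjusted p under 0.05. LPCAT3, which places polyunsaturated fatty acids into phospholipids, had 0.50, 0.18, −0.041 and 0.57. CDS2, a CDP-diacylglycerol synthase, had −0.20, −0.20, −0.24 and −0.089. ETNK2, an ethanolamine kinase, had −0.040, −0.51, −0.45 and −0.29. Prostaglandin genes had a median of −0.0042: PTGES, a prostaglandin E synthase, had −0.099, −0.64, −0.25 and −0.073. PTGS2, the inducible cyclooxygenase, had −0.34, 0.79, −0.55 and 0.21. GGPS1, which makes geranylgeranyl diphosphate, had −0.17, −0.23, −0.16 and −0.12. The sterol isomerase EBP, X-linked, had −0.23, −0.28, −0.47 and −0.15; both were negative in 4 of 4. The cholesterol regulators SREBF2 (−0.0043 ± 0.28) and INSIG1 (−0.0078 ± 0.11) stood near 0, as did PPARG (−0.031 ± 0.10). Aldehyde dehydrogenases, which clear lipid aldehydes, had a median of −0.017, with ALDH8A1, which oxidises retinal, at −0.15, −0.12, −0.24 and −0.026 (−0.044 with CAN in Cy3, −0.22 in Cy5). Sphingolipid synthesis had a median of 0.022.

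Stress, protein turnover and interferon lists varied in their share of members at an unadjusted p under 0.05, beside 3.15% of all genes. In the antioxidant list 2 of 41 (4.88%) were at an unadjusted p under 0.05: NFE2L2, the transcription factor of antioxidant genes, had 0.029, −0.13, −0.72 and −0.46 (−0.12 with CAN in Cy3, −0.52 in Cy5), lowest on slide 2. TXNIP, the inhibitor of thioredoxin, had 0.057, 0.26, 0.018 and 0.26 over 4 positive probes. GPX4, which repairs lipid peroxides, had −0.58, −0.36, 0.63 and −0.45, with replicate 3 opposite to the rest. None of 27 genes of the unfolded protein response was at that level, and the chaperone HSPA5 had 0.31, 0.79, 0.44 and −0.25. AHSA1, an activator of HSP90, had −0.076, −0.36, −0.19 and −0.36 (−0.39 with CAN in Cy3, −0.099 in Cy5). The mitochondrial protease HTRA2 had −0.56, −0.57, 0.099 and −0.20. AIFM1, a mitochondrial flavoprotein coded on the X chromosome, had 0.74, 1.12, 0.49 and −0.10. Proteasome genes had 2 positive and 2 negative members at that level (9.76%), 1 in all without replicate 2 and 7 without replicate 4. PSMC1 (0.22 ± 0.15) and PSMC3 (−0.40 ± 0.35), ATPases of the same ring, lay on opposite sides, as did PSMD6 (0.16 ± 0.057) and the ubiquitin receptor ADRM1 (−0.33 ± 0.21). Interferon genes, which respond in bovine tissue to the trophoblast's interferon tau, had 4 of 32 members at that level (12.5%). IRF7 had −0.34, −0.13, −0.41 and −0.83. UBA7, the activating enzyme of ISG15, had −0.35, −0.057, −0.098 and −0.25. IRF3 had −0.58, −0.11, −0.36 and 0.070 (−0.0058 with CAN in Cy3, −0.48 in Cy5). The receptor chain IFNAR1 had −0.042, 0.35, 0.23 and 0.22 (0.29 with CAN in Cy3, 0.093 in Cy5). Without replicate 1, 3 or 4 the count was 1, and the classical targets ISG15 (−0.096, 0.051, −0.035 and 0.11) and MX1 (−0.094, −0.089, 0.11 and −0.14) stood near 0. Lysosomal genes had replicate medians of 0.069, 0.059, −0.13 and −0.17, above 0 on slide 1 and below it on slide 2, and the protease CTSB had 0.016, −0.50, −0.76 and −0.34. The SUN medians of lysosomal genes, on slides 3 and 4, were 0.13, 0.37, −0.15 and −0.058.

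Lineage genes of the blastocyst varied by replicate. Of 19 trophectoderm transcription factors 0 had the same sign in 4 of 4 replicates, beside 10.5% of all genes, a small difference in a list of 19. CDX2, which defines the layer, had −0.30, −0.23, −0.46 and 0.16. GATA3 had −0.12, −0.14, 0.014 and 0.32. TFAP2C had −0.034, −0.59, 0.093 and 0.22. Trophoblast products had medians of 0.055, −0.018, −0.28 and −0.038: IFNT, the pregnancy signal of ruminants, had −1.66, 0.88, −0.29 and −1.80. TKDP1, a Kunitz-domain protein, had 0.95, 1.20, −1.57 and −0.37. PAG2, a pregnancy-associated glycoprotein, had 0.97, −0.75, −0.77 and −0.84. PAG2 was about equal in 3 replicates and of opposite sign in replicate 1. The main limma fit put it at −0.35 with an unadjusted p of 0.318. Robust regression, which gives an odd replicate less weight, put it at −0.75 with an adjusted p of 0.00958 in limma over all genes. With replicate 1 left out of the main fit, 0 genes passed the FDR, PAG2 included. NANOG, of the epiblast, had −2.19, 2.63, −1.11 and 1.82, the widest spread of the genes named here. POU5F1, another pluripotency factor, had −0.15, −0.35, 0.26 and 0.32. SOX2 had −0.12, 0.011, −0.050 and −0.097. SOX17 of the hypoblast had 0.067, −0.0050, 0.090 and −0.012. TTR, a secreted hypoblast product, had 0.45, 0.094, 0.15 and −0.0039. CLDN6, a tight junction protein of the trophectoderm, had −0.11, −0.20, −0.10 and −0.20 (−0.24 with CAN in Cy3, −0.064 in Cy5), all below 0. CDH1, the epithelial cadherin, had −0.057, −0.28, −0.024 and −0.015. The pump subunit ATP1B1 had −0.084, 0.043, 0.066 and 0.069. The water channel AQP3 had 0.47, −0.38, −0.17 and −0.15. In the Hippo and Wnt list LATS2 and DVL1, which relays Wnt signals (−0.11, −0.17, −0.12 and −0.084; −0.26 with CAN in Cy3, 0.011 in Cy5), were at an unadjusted p under 0.05 among 43 (4.65%). In the actomyosin list of 52 MYL6 was the only one, while MYH9, the heavy chain it binds, had −0.055, 0.31, −0.13 and 0.056. ACTB had −0.81, −0.18, 0.46 and 0.28.

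Growth signalling lists lay near 0, from −0.027 for PI3K, mTOR and autophagy to 0.013 for FGF ligands and receptors. In the KIT and RAS list, KITLG, the ligand of KIT, had 0.24, 0.10, −0.18 and −0.065 and did not share the sign of the receptor in all replicates. NRAS, a RAS GTPase, had 0.19, −0.14, −0.044 and −0.27. BMP5, a bone morphogenetic protein, had 0.10, 0.17, 0.13 and 0.11. ACVR2B, an activin receptor, had −0.17, −0.40, −0.24 and −0.13, of a single sign like BMP5. TSC1, the brake of mTOR, had 0.13, 0.14, 0.082 and 0.18. MTOR itself had 0.17, 0.39, 0.61 and 0.071. IGF2, an imprinted growth factor, had −0.063, −0.17, −0.056 and −0.10 with 1 of 3 probes positive. INSR, the insulin receptor, had 0.15, 0.31, 0.065 and 0.37.

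Cell cycle and genome genes had members on both sides too. Among 54 cell cycle genes (5.56% at an unadjusted p under 0.05), PLK4, the centriole kinase, had 0.42, 0.39, 0.016 and 0.013 (0.35 with CAN in Cy3, 0.067 in Cy5). CDC25A, which activates cyclin-dependent kinases, had 0.061, 0.28, 0.038 and 0.20 (0.22 with CAN in Cy3, 0.071 in Cy5). KIF11, the spindle motor, had −0.29, −0.28, −0.17 and −0.12. Of 43 replication genes (6.98%), RPA1, which coats single-stranded DNA, had 0.21, 0.33, 0.082 and 0.20. MCM6 of the helicase had 0.30, 0.091, 0.35 and 0.19. The ligase LIG1 had −0.74, −0.55, −0.52 and −0.011. MSH6, a mismatch reader, averaged 0.17 ± 0.19. BABAM1 of a BRCA1 complex averaged −0.18 ± 0.15. NDN, a paternally expressed imprinted gene, had 0.34, 0.68, 0.088 and 0.55, the 1 member of 28 imprinted genes at that level. DNMT1, the maintenance DNA methyltransferase, averaged 0.033 ± 0.13. DNMT3B, a de novo methyltransferase, had −0.55, −0.88, −0.18 and 0.79. None of 17 DNA methylation genes and none of 47 chromatin genes was at that level. In the meiosis list TEX12 and HORMAD1 (0.11, 0.069, 0.48 and 0.26; 0.57 with CAN in Cy3, −0.11 in Cy5), an axis protein of meiotic chromosomes, made 2 of 18 (11.1%). ZAR1L, an oocyte gene, had 0.12, 0.22, 0.28 and 0.093.

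Markers of other cells that may come along with flushed embryos were read in 4 lists, and some stood apart in single replicates. In the uterine list 10 of 25 genes were positive, 9 of 25 had the same sign in 4 of 4 replicates (beside 10.5% of all genes), and the replicate medians were 0.025, 0.018, −0.024 and −0.0021. The secreted LTF had −0.14, −0.088, −2.21 and −0.048. BPIFB1 had 0.33, 0.018, −1.93 and −0.044, far lower in replicate 3, as LTF was. For blood cells 13 of 25 genes were positive and the medians were 0.049, 0.0087, −0.015 and −0.024, and PTPRC, the leukocyte marker, had 0.72, −0.14, −0.063 and −0.16. Cumulus and granulosa genes (7 of 20 positive) had medians of −0.028, −0.013, −0.015 and 0.024. Spermatozoon genes (11 of 26 positive) had medians of 0.028, 0.010, −0.014 and −0.0012, with SPATA18 at 0.20 ± 0.10 the 1 member at an unadjusted p under 0.05 over these 4 lists. Their part in the results was not tested.

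Transcripts tied to the sex of an embryo also differed between replicates. XIST, the RNA that silences an X chromosome in females, had 0.99, 2.69, −0.91 and −1.89, high on slide 1 and low on slide 2. Across 20 X-linked genes that differ by sex in bovine blastocysts the medians were 0.098, 0.44, −0.17 and −0.19, and over all 568 X-linked genes measured they were 0.032, 0.055, −0.026 and −0.045, with the same signs. In SUN arrays those 20 genes had medians of 0.12, 0.29, −0.10 and −0.058. The 5 measured Y-linked genes had medians of −0.032, −0.082, −0.062 and −0.012, and DDX3Y had −0.14, −0.63, −0.070 and 0.015. Of the 372 genes that the rules for named genes gave, 11 are X-linked, among them PGK1, AIFM1, PRPS1, PDHA1 (−0.069, 0.90, −0.30 and −0.044), HSD17B10 (−1.01, 1.01, −0.42 and −0.39) and ALAS2 (0.66, 0.96, 0.50 and −0.57), and each of these was highest in replicate 2, as XIST was. That held for 7 of the 10 besides XIST, the others being EBP, ACSL4 and UBE2A. The part of embryo sex in their ratios was not tested.

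The widest spread between replicates among genes with 2 or more probes was that of CSRP2, a LIM-domain protein, at −0.50, 2.54, 0.41 and −0.28 over 3 probes. FLX and SUN replicates of a number were set against CAN samples of 1 label, so their values are not independent and stand side by side only. In SUN arrays CSRP2 had −0.39, 2.49, 0.22 and −0.057. ZNF280B, a zinc finger gene, had −0.30, −1.94, 1.09 and −0.62 in FLX and −0.55, −2.16, 0.57 and −0.45 in SUN. CNN3, a calponin, had −0.66, −1.86, −0.19 and 0.88 in FLX and −0.41, −1.96, −0.52 and 0.51 in SUN. SLC1A4, a neutral amino acid transporter, had −0.99, −2.14, 0.30 and −0.18 in FLX and −1.07, −2.43, 1.28 and −0.24 in SUN. In these 3 replicate 2 was the lowest of both diets. SLC66A3 had −0.89, 0.99, −1.33 and 0.63 in FLX and −0.058, 2.02, −0.89 and 1.13 in SUN. ACOT4, an acyl-CoA thioesterase of peroxisomes, had −0.064, 1.08, 0.070 and −1.18 in FLX and −0.76, 1.37, 0.35 and −0.38 in SUN. PID1, an adaptor that binds the lipoprotein receptor LRP1, behaved differently, with −0.12, 0.063, 0.25 and −2.15 in FLX and −0.17, 0.39, 0.70 and −0.28 in SUN: its low value in FLX replicate 4 had no counterpart there. CALB1, a calcium-binding protein, had 0.21, 0.28, −1.27 and 0.47 in FLX and 0.046, 1.60, −0.85 and 0.43 in SUN, lowest in replicate 3 of both.

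**Figure D5:**
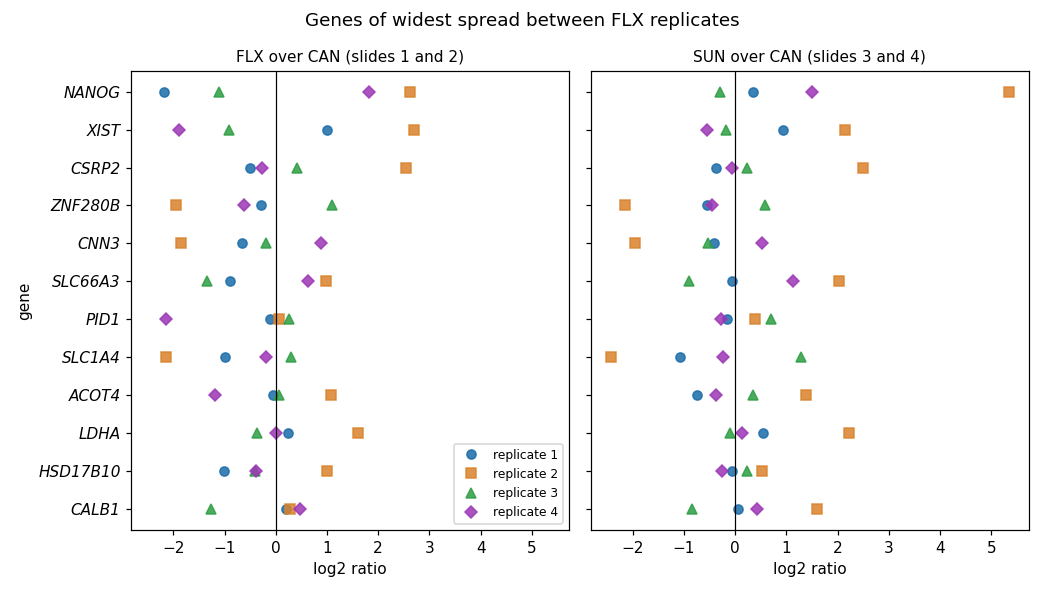
Log2 ratios over CAN (horizontal axes) of the 10 genes with 2 or more probes and the largest SD over FLX replicates, with NANOG and XIST added, in the 4 FLX replicates (left) and the 4 SUN replicates (right), where the same number marks the same CAN label. Replicate 2 is the farthest from 0 on both sides for CSRP2, ZNF280B, CNN3 and LDHA, while PID1 is low in FLX replicate 4 only.

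Whether the FLX ratio differed from the SUN ratio was tested as their difference in the same limma model. No probe (0.0%) and no gene (0.0%) passed an FDR of 0.05, and 949 probes (2.17%) and 318 genes (2.09%) were at an unadjusted p under 0.05. With the replicate number as a block, which sets the diets side by side within a CAN label, 2326 probes were at an unadjusted p under 0.05 and 0 passed the FDR. Among the 50 probes of smallest p in the fit without the block, the lowest difference was that of ZNF219, a zinc finger gene, at −0.39 ± 0.14 in FLX and 0.52 ± 0.53 in SUN. LHX2, a LIM homeobox gene, stood at −0.51 ± 0.55 in FLX and 0.36 ± 0.096 in SUN. CLN3, a lysosomal membrane protein, stood at −0.41 ± 0.35 in FLX (−0.67 with CAN in Cy3, −0.16 in Cy5) and 0.42 ± 0.28 in SUN. KDELR3, which returns escaped proteins to the endoplasmic reticulum, stood at −0.23 ± 0.20 in FLX and 0.37 ± 0.078 in SUN. M6PR, which sorts enzymes to lysosomes, had −0.25 ± 0.32 in FLX and 0.34 ± 0.20 in SUN on 1 of 3 probes. All 5 were negative in FLX and positive in SUN.

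The highest difference was that of TEX12 at 0.48 ± 0.12 in FLX and −0.28 ± 0.22 in SUN on 1 of 3 probes. KIT, described above, stood at 0.37 ± 0.064 in FLX and −0.19 ± 0.20 in SUN on 1 of 3 probes. ECHS1, the enoyl-CoA hydratase of fatty acid oxidation, stood at −0.17 ± 0.091 in FLX and −0.71 ± 0.34 in SUN, negative in both. C7H1orf35 stood at 0.090 ± 0.12 in FLX and −0.34 ± 0.16 in SUN on 1 of 3 probes. DHODH stood at 0.19 ± 0.11 in FLX and −0.22 ± 0.17 in SUN. Of the 1.5-fold genes described first, HKDC1 stood at −0.70 ± 0.38 in FLX and 0.065 ± 0.38 in SUN. COL1A2 stood at −0.64 ± 0.21 in FLX and −0.071 ± 0.54 in SUN. PSPH, at −0.62 ± 0.57 in FLX and −0.61 ± 0.67 in SUN, had nearly the same mean in both diets. So had DESI2, at −0.61 ± 0.41 in FLX and −0.71 ± 0.32 in SUN. LOC516378 was negative in both at −0.63 ± 0.35 in FLX and −0.56 ± 0.28 in SUN. MRPL14 was too, at −0.63 ± 0.35 in FLX and −0.74 ± 0.56 in SUN. MYL6 stood at −0.38 ± 0.14 in FLX and 0.040 ± 0.17 in SUN, a difference of −0.42 that did not pass the FDR (adjusted p = 1.00 in limma).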

How the data were processed

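Whole blastocysts were profiled on 16 two-colour arrays, and the log2 ratios were used as the authors deposited them; their centring, scaling, background correction and dye direction are not given in the sources used here, nor is the base of the logarithm, taken as 2. Per the labels' protocols, RNA was amplified and labelled with Cy3 and Cy5. By their dye labels the arrays were turned so that the diet stands over CAN, and each was averaged with its dye swap. Gene means averaged the probes of 1 symbol: 21790 probes had 1 symbol, 0 several and 22004 none. Of the named probes 21549 matched the RefSeq gene table (ARS-UCD2.0), which updated 1524 symbols and gave chromosomes.

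limma 3.58.1 (R 4.3.3) fitted 1 coefficient per diet over 8 replicates (4 FLX, 4 SUN; 6 residual degrees of freedom), with Benjamini-Hochberg adjustment over all probes or genes; tables were made with Python 3.11.15. On simulated data (10 runs of 43794 probes, 200 changed) it recovered 85.3% of 2-fold and 97.6% of 4-fold changes, with 9.9 false calls a run. Simulated noise was normal and independent between probes and replicates, without the correlation of like-numbered replicates given below. Changes under 2-fold were not simulated, so these shares do not apply to ratios of that size. The labels number FLX and SUN replicates alike, each pair with the same CAN label. Over all probes, ratios of same-numbered FLX and SUN replicates correlated at 0.328 to 0.565. FLX and SUN replicates of unlike number were not correlated directly, while FLX replicates among themselves correlated at −0.264 to 0.0482. Within a replicate number the consensus correlation of limma was 0.300 over probes and 0.354 over genes. Within a slide it was −0.121 and −0.100. What the numbers share beyond the CAN label was not tested. P-values measure the spread between replicates of both diets, taken as 8 independent values although FLX and SUN share CAN labels.

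Named genes were probes of 1.5-fold at an unadjusted p under 0.05 with the same sign in 4 of 4 replicates; the 10 highest and 10 lowest genes of 3 or more probes with 1 sign throughout; the 10 genes of smallest p in each direction; key members and the 3 of smallest p in each of 71 lists; the 10 genes of 2 or more probes with the widest spread; and the 5 highest and 5 lowest of the 50 probes of smallest p for FLX minus SUN. DDX51, PFN2 and PRMT3 were chosen after their values were seen. Members and lists were chosen with earlier results of these data known. Alternatives were robust regression, scaling, centring, FLX replicates alone, array weights, single dye orders, single arrays with a dye term, slide and replicate number as blocks, one-symbol probes, the median of a gene's probes and leaving out each replicate.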

Additional observations from a re-analysis of the deposited data

Results flagged for a closer look

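Of 454 genes and lists with 4 FLX replicates, 30 had 1 replicate far from the other 3, a share little above the about 5% that chance gives. The items included genes named for the widest spread over these replicates, PID1 and CALB1 among them, and lists that share genes with other items. It was replicate 1 in 8 cases, 2 in 5, 3 in 12 and 4 in 5.

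Replicate 3 was the low one for 10 genes and the high one for 2. LTF, the secreted lactoferrin, stood at −2.21 in replicate 3 and at −0.14 to −0.048 in the others. BPIFB1 stood at −1.93 in replicate 3 and at −0.044 to 0.33 in the others. CALB1 stood at −1.27 in replicate 3 and at 0.21 to 0.47 in the others. SYTL2 stood at −0.69 in replicate 3 and at −0.17 to −0.062 in the others. CAT, the peroxide-clearing catalase, stood at −0.56 in replicate 3 and at 0.0078 to 0.064 in the others. SCNN1B, a subunit of the epithelial sodium channel, stood at −0.45 in replicate 3 and at −0.16 to −0.12 in the others. MOB1B, a Hippo pathway adaptor, stood at −0.32 in replicate 3 and at −0.090 to −0.068 in the others. ACACA, the first enzyme of fatty acid synthesis, stood at −0.25 in replicate 3 and at 0.0053 to 0.054 in the others. CCL5, a chemokine, stood at −0.10 in replicate 3 and at 0.11 to 0.12 in the others. OOSP2, an oocyte-secreted protein, stood at −0.034 in replicate 3 and at 0.10 to 0.13 in the others. ZMYM1 stood at 0.64 in replicate 3 and at 0.24 to 0.29 in the others. NUP35 stood at 0.29 in replicate 3 and at 0.077 to 0.11 in the others.

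ATF4, a transcription factor of the amino acid response, stood at −1.73 in replicate 2 and at −0.33 to −0.062 in the others. IARS1, the isoleucyl tRNA synthetase, stood at −0.77 in replicate 2 and at −0.047 to 0.076 in the others. CDH1 stood at −0.28 in replicate 2 and at −0.057 to −0.015 in the others. PGK1 stood at 0.71 in replicate 2 and at 0.23 to 0.31 in the others. MCM2, a subunit of the replicative helicase, stood at 0.34 in replicate 2 and at −0.12 to −0.051 in the others. ATF4 and IARS1 were both lowest in replicate 2.

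In replicate 4 a chaperone, a transporter and an adaptor stood apart. PID1 stood at −2.15 in replicate 4 and at −0.12 to 0.25 in the others. HSPA8, a constitutive chaperone, stood at −0.43 in replicate 4 and at 0.36 to 0.49 in the others. ABCA1, a cholesterol exporter, stood at 0.23 in replicate 4 and at −0.26 to −0.24 in the others. In replicate 1 the markers of trophoblast, leukocyte and hypoblast did. PAG2 stood at 0.97 in replicate 1 and at −0.84 to −0.75 in the others. PTPRC stood at 0.72 in replicate 1 and at −0.16 to −0.063 in the others. PDGFRA, a hypoblast receptor, stood at −0.29 in replicate 1 and at 0.034 to 0.083 in the others. ATP1B1 stood at −0.084 in replicate 1 and at 0.043 to 0.069 in the others.

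Of the list medians, 4 stood apart in replicate 1 and 2 in replicate 4. The median of DNA replication genes stood at −0.14 in replicate 1 and at 0.018 to 0.043 in the others. The median of chromatin genes stood at 0.13 in replicate 1 and at −0.018 to 0.0043 in the others. The median of phospholipid genes stood at 0.065 in replicate 1 and at −0.070 to −0.058 in the others. The median of basement membrane genes stood at 0.065 in replicate 1 and at −0.048 to −0.031 in the others. The median of nucleotide synthesis genes stood at 0.072 in replicate 4 and at 0.025 to 0.028 in the others. The median of proteasome genes stood at −0.081 in replicate 4 and at 0.031 to 0.043 in the others. The cause of these single values was not tested.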

How the results depend on the processing

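The number of arrays, not a depth, limits these values: 4 pools per diet gave a median standard error of 0.0735 for a probe, and the ratios hold no signal over background. The count of probes at an FDR of 0.05 was 0, but 22 with robust regression and 1 with the arrays with CAN in Cy5 only (NAA35, log2 ratio 1.01, adjusted p = 0.00783 in limma). The count of 1.5-fold probes was 35, against 77 with robust regression, 82 with arrays scaled, 359 on arrays that held CAN in Cy3, 122 on those that held it in Cy5, 69 with single arrays and a dye term, 20 over one-symbol probes and 45 to 136 without a replicate. Genes at an FDR of 0.05 numbered 0, but 6 with robust regression. Genes at an unadjusted p under 0.05, a count added after seeing the data, numbered 480, against 1141 with robust regression, 728 with arrays scaled, 1901 on arrays that held CAN in Cy3, 1027 on those that held it in Cy5 and 346 to 788 without a replicate. For FLX minus SUN 0 probes passed the FDR, but 4 with robust regression, and with the replicate number as a block 2326 probes in place of 949 were at an unadjusted p under 0.05, a count added after seeing the data. The block moved no other count by over 1.5 times: as a random block it gave 44 probes of 1.5-fold and 479 genes. Of 52 values of named genes recomputed under these settings, MINPP1 (−0.0023) and TMEM38B (−0.017) turned sign with CAN in Cy5 only, and 22 of 764 recomputed values moved by more than 1 SD. Of 648 recomputed list medians 46 moved by that much and 101 changed sign. The cause was not tested in any of these cases.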
